A study of Mus musculus with 8 samples.

Results

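The genes described here encode subunits of the GABA-A receptor: Gabra2, Gabra3, Gabra4, Gabra5, Gabra6, Gabrb2 and Gabrd. The list was given, and all 7 genes were found among the 55401 genes of the deposited count table, where they held 0.0735% of all counts. The libraries came from RNA immunoprecipitation (RIP), in which an antibody pulls a protein out of a lysate and the RNA recovered beside it is sequenced. All came from tissue of C57BL/6 mice labelled hippocampus, with no age, genetic change or treatment given. The antibody was directed at CaMKIIβ, a subunit of calcium/calmodulin-dependent kinase II, for 3 libraries (CaMKIIβ RIP), and 3 others used IgG as the control antibody (IgG RIP). A further 2 libraries (Input) hold the RNA before any antibody was used. The labels do not say whether libraries of a group came from separate animals, so the p-values measure only the spread between these libraries, which may be technical.

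GABA-A receptors are chloride channels that open when GABA binds and carry most fast inhibition in the brain. Each channel is a ring of subunits, most often of the alpha and beta classes with a gamma or delta subunit, and the alpha subunit largely sets where in the neuron the receptor sits and which drugs act on it. Receptors with alpha4, alpha5, alpha6 or delta are known for tonic inhibition outside synapses, alpha5 for its high level in hippocampus, and alpha6 for being a marker of cerebellar granule cells.

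The libraries held 17273957 to 28138289 counts, of which the 7 genes took 12439 to 24321. CaMKIIβ RIP replicate 2 stood apart: on the first principal component it lay at -95.3, and the other 7 libraries lay between -2.15 and 37.8. It had at least 1 count for 19247 genes, against 24865 to 31152 in the others. CaMKIIβ RIP replicate 3 lay apart on the third component, at -48.6 against -1.35 to 11.8. The labelled tissue was checked against markers. Telencephalic and hippocampal neuron genes were present at low to moderate levels in Input. Nrgn, a calmodulin-binding postsynaptic protein, was at 79.1 CPM (counts scaled to a common library total) per kb of exon. Neurod2 was at 31.6, the dentate transcription factor Prox1 at 14.9 and Wfs1 at 13.6 CPM per kb. The CA1 marker Spink8, picked after its value was seen, was at 2.52 CPM, not divided by exon length. Of 14 such markers 0 were at 0 in any library. Markers of cerebellar granule cells were high in the same libraries: Cbln3 reached 159 and Cbln1 137 CPM per kb in Input (n = 2), and 0 of 13 were at 0. The cell types behind each subunit transcript are therefore not certain, and in bulk RNA fewer cells of a type and less RNA per cell cannot be told apart.

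The members lie on 5 chromosomes (GRCm38 coordinates from the deposited table). Gabra2 (ENSMUSG00000000560.9, 70957597 to 71095849) and Gabra4 (ENSMUSG00000029211.11, 71569749 to 71658308) are neighbours on the minus strand of chromosome 5. Gabra6 (ENSMUSG00000020428.13, 42306437 to 42321072, minus strand) and Gabrb2 (ENSMUSG00000007653.12, 42419757 to 42629028, plus strand) are neighbours on chromosome 11. Gabra5 (ENSMUSG00000055078.7, 57407672 to 57510059) is on chromosome 7, Gabra3 (ENSMUSG00000031343.13, 72432681 to 72656848) on chromosome X and Gabrd (ENSMUSG00000029054.8, 155384980 to 155398112) on chromosome 4, each on the minus strand. Counted exons came to 2489 bases for Gabra6, 2875 for Gabrd, 2974 for Gabra5, 3924 for Gabra3, 6083 for Gabra4, 6360 for Gabrb2 and 7640 for Gabra2. Exons of other annotated genes overlapped 46 bases (0.76%) of Gabra4 and 148 bases (4.98%) of Gabra5, both on the opposite strand, and 0 bases of the other 5. Whether counting used strand is not given in the sources used here, so reads from these short stretches may belong to either gene.

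Sequences upstream of the start are shown for the members whose levels moved most alike, the chromosome 11 neighbours Gabra6 and Gabrb2, and for Gabra2, which had the lowest fold changes against Input. RefSeq promoter windows on GRCm38.p6 were found for 6 of the 7 members, in 9 windows; Gabrd was not matched. Each line gives the 250 bases before an annotated start, 5′ to 3′ on the strand of the gene, with CG dinucleotides in capitals. Gabrb2 has 3 such windows, and the one shown is the first of them along the gene. It lies inside the span of the counted gene, which begins at 42419757.
Gabra6 (chr11:42321073-42321322, minus strand): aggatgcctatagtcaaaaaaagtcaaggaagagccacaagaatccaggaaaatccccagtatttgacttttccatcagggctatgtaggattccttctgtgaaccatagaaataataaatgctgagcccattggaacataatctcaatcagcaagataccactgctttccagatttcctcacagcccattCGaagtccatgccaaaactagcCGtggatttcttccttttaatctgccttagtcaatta
Gabrb2 (chr11:42420190-42420439, plus strand): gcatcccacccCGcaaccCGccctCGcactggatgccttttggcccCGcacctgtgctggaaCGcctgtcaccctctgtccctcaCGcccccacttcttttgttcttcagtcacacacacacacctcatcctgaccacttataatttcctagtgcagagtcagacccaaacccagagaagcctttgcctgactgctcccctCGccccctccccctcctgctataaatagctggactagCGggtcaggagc
Gabra2 (chr5:71095850-71096099, minus strand): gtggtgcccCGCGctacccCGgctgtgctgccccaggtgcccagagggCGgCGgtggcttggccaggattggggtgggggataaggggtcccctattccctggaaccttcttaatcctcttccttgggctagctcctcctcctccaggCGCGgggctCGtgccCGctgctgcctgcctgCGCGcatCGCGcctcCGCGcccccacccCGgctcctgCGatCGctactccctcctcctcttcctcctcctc
The Gabra6 window held 2 CG dinucleotides and 40.8% G and C, and 18.8% of the 32851 windows of the same length held fewer CG. The Gabrb2 window shown held 8 and the Gabra2 window 18, with 57% and 78.3% of windows below them, against a median of 6. The motif TATAAA, searched on both strands, began 30 bases before the RefSeq start of this Gabrb2 window. It was not found in the windows of Gabra6 and Gabra2. The other Gabrb2 windows held 8 and 4 CG dinucleotides and 0 matches to TATAAA, which was found in 12.4% of all windows. The 3 Gabrb2 windows held 58.8%, 54% and 36.8% G and C, a range that includes the 40.8% of Gabra6. RIP counts do not measure transcription.

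Levels of the members were compared with each other as CPM per kb of exon, with CPM scaled by TMM over all 8 libraries. In Input, Gabra6 was the highest at 168 ± 0.397 CPM per kb (SD, n = 2, as for all Input values), followed by Gabrb2, the beta2 subunit, at 50.7 ± 0.393 and Gabrd, the delta subunit, at 27.9 ± 1.52. Gabra2 (12.8 ± 0.76) and Gabra5 (12.6 ± 2.12) did not differ beyond their spread, and Gabra3 (9.15 ± 0.501) and Gabra4 (7.85 ± 0.137) were lowest. Gabra6 was thus the highest of the 7 transcripts in tissue labelled hippocampus, 3.31 times Gabrb2. In IgG RIP the order was Gabra6 (87.8 ± 4.43, n = 3), Gabrb2 (32.5 ± 3.45), Gabrd (25.6 ± 1.1), Gabra5 (12.4 ± 1.05), Gabra3 (7.62 ± 0.981), Gabra2 (6.24 ± 0.831) and Gabra4 (4.27 ± 0.767). The ranges of Gabra3 and Gabra2 overlapped there, and those of the other neighbours did not. In CaMKIIβ RIP, Gabra6 was again highest (93.0 ± 16.9, n = 3), Gabrd (32.0 ± 12) and Gabrb2 (30.6 ± 2.83) overlapped, and Gabra5 followed at 11.5 ± 2.6. The 3 lowest, Gabra3 (7.39 ± 0.792), Gabra2 (5.85 ± 2.2) and Gabra4 (4.7 ± 0.528), overlapped in the order given, Gabra3 with Gabra2 and Gabra2 with Gabra4, and Gabra3 did not overlap with Gabra5. Gabra2 was the member that changed place most, from rank 4 in Input to rank 6 in both immunoprecipitates. The ranks were the same as TPM and with library size scaling.

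**Figure D1:**
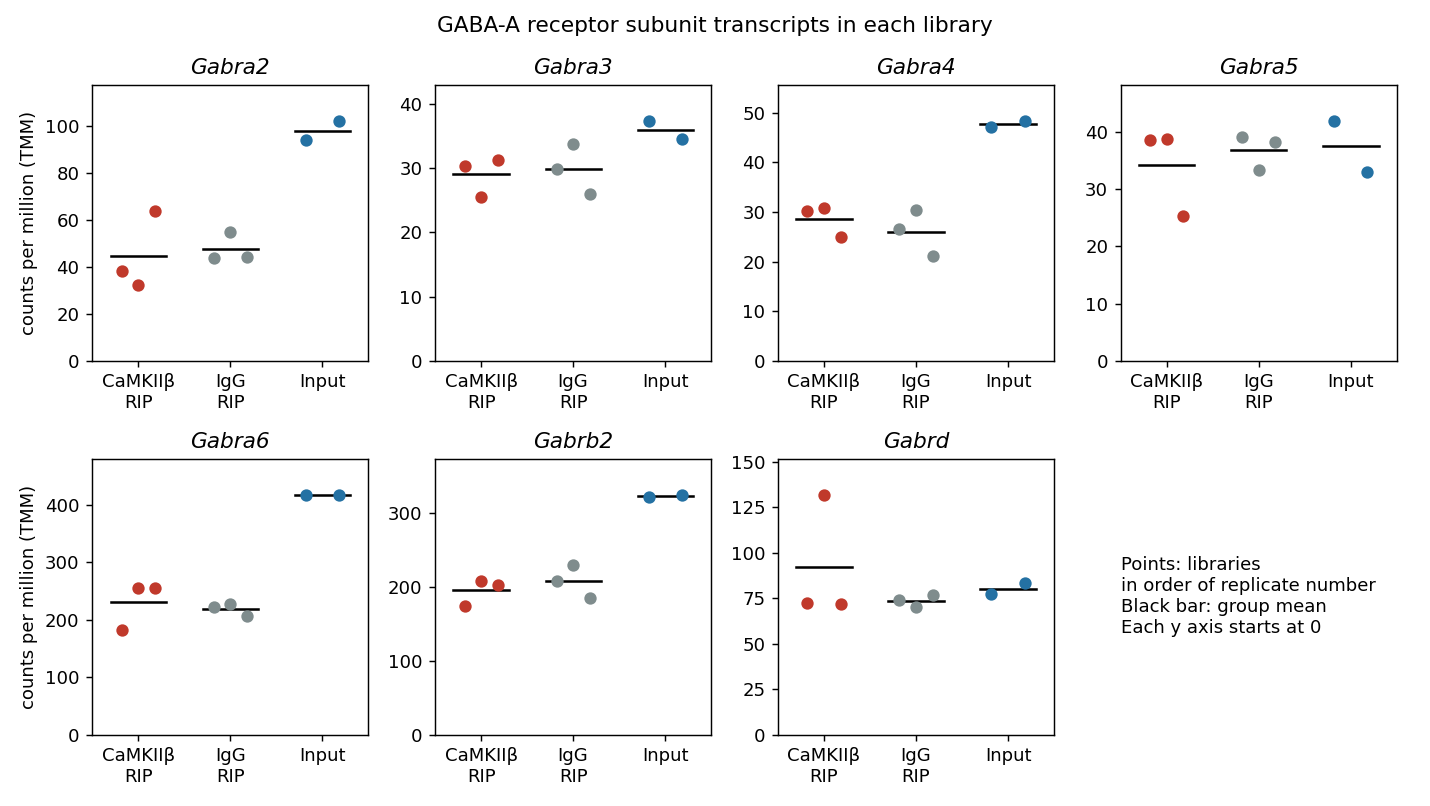
CPM scaled by TMM (y axes, each from 0) for the 7 subunit genes in 3 CaMKIIβ RIP, 3 IgG RIP and 2 Input libraries; points are libraries and black bars group means. For Gabra2, Gabra3, Gabra4, Gabra6 and Gabrb2 both Input points lie above all 6 RIP points, for Gabra3 by little (34.53 against 33.72 CPM). The share of all genes separated in this way was not counted. For Gabrd, CaMKIIβ RIP replicate 2 lies above the rest at 132 CPM.

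The first comparison, of CaMKIIβ RIP with IgG RIP, addresses whether the kinase antibody brought down these transcripts at another scaled level than a control antibody. None of the 7 subunit genes passed the threshold (0 higher and 0 lower at an adjusted p under 0.05), where 0% of the 20566 genes tested did. The fold changes lay between -0.10 for Gabra5 and 0.33 for Gabrd on the log2 scale, with a median of -0.03, against -0.02 over all genes. The members thus lay where other genes did. By edgeR the unadjusted p was under 0.05 for 721 genes and 0 of the members, and DESeq2 and limma-voom also called 0 genes, with 907 and 780 such p-values.

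Gabra6 was at 183, 256 and 256 CPM in CaMKIIβ RIP replicates 1, 2 and 3 and at 222, 227 and 206 CPM in IgG RIP. The groups overlapped, and the log2 fold change was 0.10 ± 0.13 (SE), with a 95% interval from -0.20 to 0.39. Gabrb2 was at 174, 208 and 202 CPM against 208, 229 and 185 CPM, a log2 fold change of -0.08 ± 0.11 with an interval from -0.33 to 0.18. This was the narrowest interval of the 7, and its libraries overlapped too. Gabrd was at 72.1, 132 and 71.7 CPM with CaMKIIβ and at 73.9, 70.2 and 76.5 CPM with IgG. Replicate 2, the library that stood apart, was high and the other CaMKIIβ RIP libraries were within the range of IgG. The log2 fold change of Gabrd was 0.33 ± 0.22, with the widest reach upward (-0.15 to 0.82), and without this replicate it was -0.02. The remaining members were at 0.15 ± 0.18 for Gabra4, -0.03 ± 0.16 for Gabra3, -0.08 ± 0.24 for Gabra2 and -0.10 ± 0.18 for Gabra5. Without CaMKIIβ RIP replicate 2 these were 0.09, 0.05, 0.11 and -0.20, and Gabra6 and Gabrb2 were at 0.02 and -0.13. All 7 adjusted p-values lay between 0.982 and 0.995. The 95% intervals together ran from -0.61 to 0.82. A 2-fold difference in either direction lay outside each of them, while differences within the interval of each gene were not excluded.

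The comparison of CaMKIIβ RIP with Input addresses which transcripts took a larger or smaller part of the immunoprecipitate than of the starting RNA. Of the subunit transcripts 4 fell: Gabra2 (2.19-fold lower), Gabra6 (1.8-fold), Gabra4 (1.67-fold) and Gabrb2 (1.65-fold). Gabra3, Gabra5 and Gabrd did not pass. The 4 of 7 members that were lower compare with 3.4% of the 22095 genes tested, and the 0 of 7 that were higher with 5.06%. The median of the members was -0.73 on the log2 scale, against -0.12 over all genes.

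Gabra2 encodes the alpha2 subunit, known at inhibitory synapses of forebrain neurons. It was at 38.2, 32.1 and 63.8 CPM in CaMKIIβ RIP replicates 1, 2 and 3, and at 94.0 and 102 CPM in Input. The groups did not overlap, and replicate 3 was the highest of the immunoprecipitates. The log2 fold change was -1.13 ± 0.27 (SE; edgeR adjusted p = 0.0477), and 12.8% of genes had a lower one. Gabra6, the alpha6 subunit, was at 417 and 418 CPM in Input, above all 3 immunoprecipitates, and had a log2 fold change of -0.85 ± 0.16 (adjusted p = 0.0224). Gabrb2, the beta2 subunit that pairs with several alpha subunits, was at 321 and 324 CPM in Input, again above all 3. Its log2 fold change was -0.73 ± 0.12 (adjusted p = 0.0144), the smallest p of the members. Gabra4, the alpha4 subunit, was at 30.1, 30.7 and 24.9 CPM against 47.2 and 48.4 CPM. Its libraries did not overlap, and its log2 fold change was -0.74 ± 0.17 (adjusted p = 0.0386). Lower fold changes than those of Gabra6, Gabra4 and Gabrb2 were found for 19.4%, 22.7% and 23.2% of genes, so falls of this size were common.

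The other 3 members had intervals that spanned 0. Gabra3, the alpha3 subunit, was at 30.3, 25.4 and 31.2 CPM against 37.3 and 34.5 CPM in Input. All 3 immunoprecipitates were below Input, with a log2 fold change of -0.31 ± 0.17 (interval -0.71 to 0.09; adjusted p = 0.372). Gabra5, the alpha5 subunit, was at 38.6, 38.7 and 25.3 CPM against 41.9 and 33.0 CPM, and the groups overlapped. Its log2 fold change was -0.13 ± 0.24 (-0.68 to 0.42; adjusted p = 0.852). Gabrd was at 77.1 and 83.3 CPM in Input, between replicate 2 and the other CaMKIIβ RIP libraries, with a log2 fold change of 0.20 ± 0.27 (-0.44 to 0.84; adjusted p = 0.788).

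The calls of this comparison rested on few libraries. With all libraries kept, Gabra2 missed the threshold with RLE scaling (-1.09, adjusted p = 0.0526) and with a stricter count filter (-1.11, adjusted p = 0.0507), in a range of 2.45e-13 to 0.238 over its 14 alternatives. Without CaMKIIβ RIP replicate 1, 0 members and 0 genes in all passed by edgeR (4607 genes had an unadjusted p under 0.05), at log2 fold changes of -0.99 for Gabra2, -0.75 for Gabra4, -0.67 for Gabra6 and -0.62 for Gabrb2. Without Input replicate 2, Gabra6 alone was called, in a fit whose spread came from the RIP libraries only. Without CaMKIIβ RIP replicate 2 the same 4 passed, at -0.88, -0.73, -0.86 and -0.71 in that order, and Gabrd turned to -0.09.

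**Figure D2:**
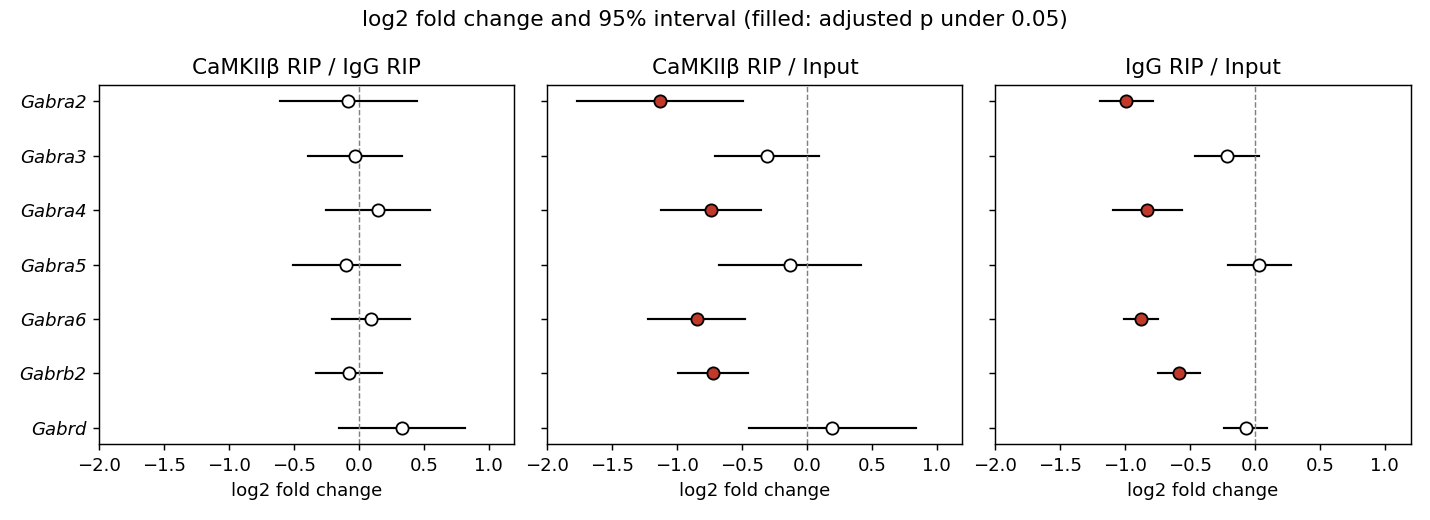
Log2 fold change (x axes) of each subunit gene with its 95% interval in the 3 comparisons, from edgeR; filled points had an adjusted p under 0.05. Against Input the same 4 genes are filled in both panels, and between the antibodies every interval spans 0.

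The same measure with the control antibody comes from IgG RIP and Input. Both comparisons use the same Input libraries, so their values are given side by side and their likeness is not a result of its own. Gabra2 (1.98-fold lower), Gabra6 (1.84-fold), Gabra4 (1.77-fold) and Gabrb2 (1.5-fold) fell. These 4 of 7 members compare with 18.7% of 22342 genes lower, and 0 of 7 with 20.1% higher. The median of the members was -0.59 on the log2 scale, against -0.02 over all genes.

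Gabra6 was at 222, 227 and 206 CPM against 417 and 418 CPM, and the groups lay far apart. Its log2 fold change was -0.88 ± 0.06 (SE; edgeR adjusted p = 1.25e-08), against -0.85 in CaMKIIβ RIP. Gabra2 was at 43.9, 55.0 and 44.1 CPM against 94.0 and 102 CPM, with all IgG libraries below Input. Its log2 fold change was -0.99 ± 0.10 (adjusted p = 4.83e-07), against -1.13 in CaMKIIβ RIP. Gabra4 was at 26.5, 30.4 and 21.1 CPM against 47.2 and 48.4 CPM. Again no library overlapped, and the log2 fold change was -0.83 ± 0.13 (adjusted p = 4.76e-05). Gabrb2 was at 208, 229 and 185 CPM against 321 and 324 CPM, a log2 fold change of -0.59 ± 0.08 (adjusted p = 9.39e-06), the smallest of the 4 falls.

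Gabrd, Gabra5 and Gabra3 were not past the threshold with IgG either. Gabrd was at 73.9, 70.2 and 76.5 CPM, just below the Input libraries, with a log2 fold change of -0.07 ± 0.08 (interval -0.24 to 0.10; adjusted p = 0.524). The interval of Gabra2 ran from -1.20 to -0.78, and the difference between genes was not tested. Gabra5 was at 39.1, 33.3 and 38.2 CPM, within the range of Input, at 0.03 ± 0.12 (-0.21 to 0.28; adjusted p = 0.852). Gabra3 was at 29.9, 33.7 and 26.0 CPM, below both Input libraries, at -0.21 ± 0.12 (-0.46 to 0.03; adjusted p = 0.167). It passed as lower without IgG RIP replicate 2 (-0.30, adjusted p = 0.0428, in a range of 0.00766 to 0.547 over its 14 alternatives). With library size alone as the scaling, which shifted the median of all genes by -0.23, Gabra3 (-0.44) and Gabrd (-0.30) also passed as lower, and the 4 other falls remained past the threshold. Under that scaling 2714 genes were higher and 6345 lower, against 4483 and 4170 with TMM. In the CaMKIIβ comparison it gave 683 and 1361, against 1117 and 751, with a shift of -0.17 and the same 4 members called.

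Exon length was set beside these falls, since fold changes against Input had a trend on length among all genes. For genes as long as Gabra2 the trend stood at -0.01 in CaMKIIβ RIP and 0.06 in IgG RIP, and for genes as short as Gabra6 at -0.13 and -0.09. With the trend taken out, Gabra2 was at -1.12 and -1.05, Gabra4 at -0.72 and -0.87, Gabrb2 at -0.70 and -0.64 and Gabra6 at -0.71 and -0.79. The members ran from 2489 to 7640 bases of exon, with Gabra6 the shortest and Gabra2 the longest.

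The balance among the alpha subunits can be read within a library, where the scaling cancels. Gabra6 made up 79.3% and 80.3% of the summed level per kb of the 5 alpha members in Input. A further alpha gene of the family is no member and is not in the sum. In IgG RIP the share of Gabra6 was 74.3%, 74.1% and 74.3%, below both Input libraries, and in CaMKIIβ RIP it was 70.6%, 78.1% and 78.1%. The mean share was 5.6 percentage points lower in IgG RIP than in Input and 4.21 points lower in CaMKIIβ RIP (two-sided exact permutation test, p = 0.2 for each, the smallest p that 3 against 2 libraries allow). The shares of a library have a fixed total, so a lower share of Gabra6 raises the others without any rise in their levels. The share of Gabra5 went the other way, from 6.68% and 5.3% in Input to 10.95%, 9.08% and 11.5% in IgG RIP (exact p = 0.2). Its mean level per kb was 12.59 CPM in Input and 12.39 in IgG RIP, so the level itself did not rise. In CaMKIIβ RIP the share of Gabra5 was 12.5%, 9.9% and 6.45% and overlapped with Input (exact p = 0.4). Gabra3 took 4.36 ± 0.211% of Input, 6.42 ± 0.514% of IgG RIP and 6.13 ± 1.25% of CaMKIIβ RIP, while its mean level was 9.155, 7.616 and 7.386 CPM per kb. In the same order the mean shares were 6.11%, 5.27% and 4.78% for Gabra2 and 3.74%, 3.6% and 3.9% for Gabra4. Over the 15 tests of 5 shares in 3 comparisons, the adjusted p-values were 0.6 to 0.9. Between the antibodies the share of Gabra6 differed by 1.39 points (75.6 ± 4.35% and 74.2 ± 0.117%; exact p = 0.4, where 3 against 3 allow 0.1). The ratio of Gabra6 to Gabrd, subunits that can form one extrasynaptic receptor in cerebellar granule cells, was 6.02 ± 0.31 per kb in Input, 3.44 ± 0.32 in IgG RIP and 3.1 ± 0.95 in CaMKIIβ RIP. Its highest RIP value, 4.12, lay below the lowest in Input, 5.8. This was not particular to the pair. The ratios of Gabra2 to Gabrd (highest RIP value 0.335, lowest Input value 0.459) and of Gabrb2 to Gabrd (1.47 and 1.76) were separated too. Other ratios overlapped, such as Gabra2 to Gabra6 (0.0812 and 0.0735).

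**Figure D3:**
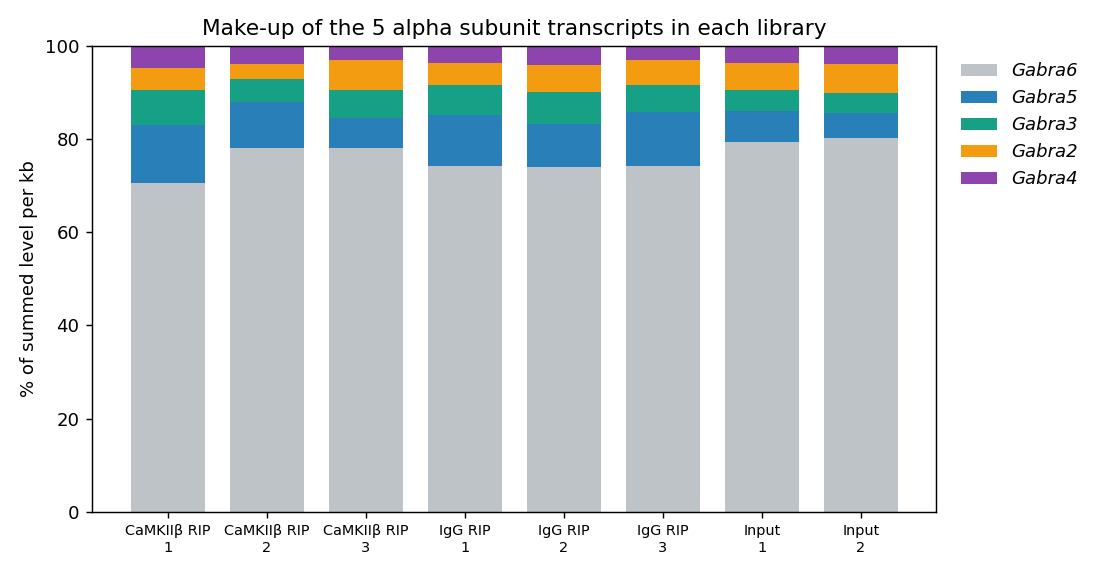
Share of each of the 5 alpha subunit transcripts (stacked bars, percent of their summed level per kb) in each of the 8 libraries. Gabra6 takes 70.6% to 80.3% of every bar, and the share of Gabra5 is widest in CaMKIIβ RIP replicate 1, at 12.5%.

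The other genes of GABA signalling were taken from lists written without regard to how each gene had moved, although earlier results of these libraries were known. Among 12 further GABA-A subunit genes, 10 were tested against Input. With CaMKIIβ 3 of them fell and 0 rose, and with IgG 4 fell and 1 rose. The shares of all genes that fell were 3.4% and 18.7%. Genes whose products cluster or carry the receptor had the opposite balance. Of 20 such genes 6 rose and 1 fell in CaMKIIβ RIP, with a median of 0.43, and 14 rose and 2 fell in IgG RIP, with a median of 0.41. The shares of all genes that rose were 5.06% and 20.1%. Among the most abundant were Nlgn2, an adhesion protein of inhibitory synapses, at 0.66 ± 0.10 (log2 fold change ± SE) in CaMKIIβ RIP and 0.81 ± 0.07 in IgG RIP, and Insyn1, an inhibitory postsynaptic protein, at 0.90 ± 0.11 and 0.76 ± 0.07. Nsf, a fusion ATPase, was at 0.18 ± 0.15 (not past the threshold) and 0.48 ± 0.07, and Gabarapl1, of the GABARAP family of receptor carriers and autophagy proteins, at 0.12 ± 0.11 and 0.16 ± 0.06 (neither past it).

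Of 8 genes that make, carry or break down GABA, CaMKIIβ RIP had 3 higher and 1 lower, and IgG RIP 6 higher and 1 lower. Beside this list and the GABA-B and chloride lists below, the shares of all genes were 5.06% higher and 3.4% lower with CaMKIIβ. With IgG they were 20.1% and 18.7%, and the lower counts of these lists lay close to the latter. Whether any list departed from these shares was not tested. The astrocytic transporter Slc6a11 rose in both (0.80 ± 0.12 and 0.74 ± 0.07). Abat, which breaks down GABA, rose in IgG RIP (0.61 ± 0.07) and was at 0.41 ± 0.15 in CaMKIIβ RIP. Gad1, which makes GABA, was at 0.14 ± 0.10 in CaMKIIβ RIP and rose in IgG RIP (0.17 ± 0.06). Gad2, which also makes GABA, was the 1 lower gene of this list in both (-0.465 ± 0.1055 and -0.3858 ± 0.067). Of 6 GABA-B receptor genes, 0 passed in CaMKIIβ RIP, and in IgG RIP 2 rose, Gabbr1 (0.64 ± 0.06) and Gabbr2 (0.38 ± 0.06), while its partner Kctd12 fell (-0.21 ± 0.07). Of 9 genes of neuronal chloride transport, which sets the driving force of the receptor, 1 rose in CaMKIIβ RIP, the chloride extruder Slc12a5 (0.70 ± 0.12). In IgG RIP 4 rose and 2 fell, among them Slc12a5 (0.49 ± 0.07) and the chloride importer Slc12a2 (-0.59 ± 0.07). Between the antibodies 0 genes of these 5 lists passed. With library size scaling the clustering list gave 4 higher and 1 lower with CaMKIIβ and 8 and 3 with IgG. In IgG RIP the GABA-B list then gave 1 higher and 2 lower and the chloride list 3 and 4, with medians of -0.13 and -0.17 in place of 0.10 and 0.06. Without CaMKIIβ RIP replicate 1, 0 genes of any of the 5 lists passed, and without CaMKIIβ RIP replicate 2 the clustering list gave 9 higher and 1 lower and the chloride list 4 and 0 against Input. Without Input replicate 1 or 2, in CaMKIIβ RIP the clustering list gave 2 higher and 0 lower each time, the GABA synthesis and chloride lists 0 and 0, and the further subunits 2 and 1 lower. The chloride list also gave 4 higher in CaMKIIβ RIP without a count filter, with DESeq2, in the fit of all 8 libraries and with the replicate block. In IgG RIP the clustering list gave 12 higher and 1 lower without Input replicate 1, 9 and 2 without Input replicate 2, and 7 and 1 in the fit of all 8 libraries.

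**Figure D4:**
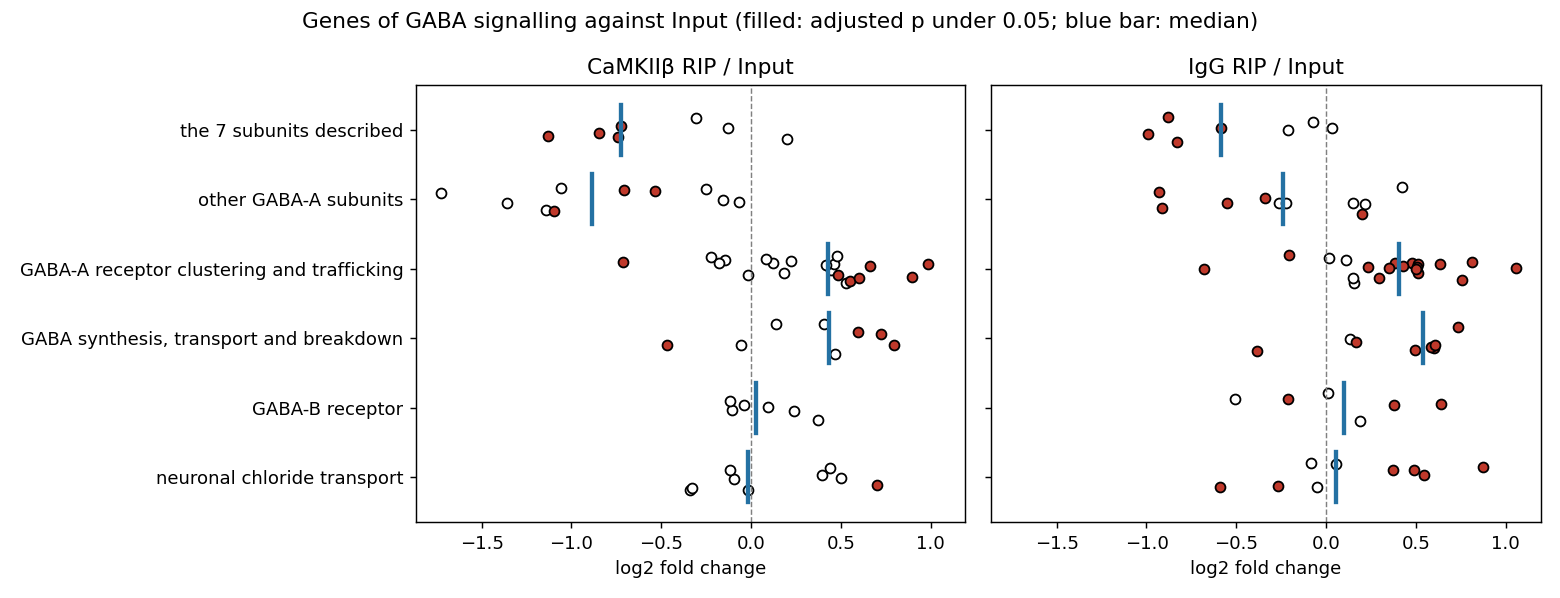
Log2 fold change against Input (x axes, same scale) of each tested gene in 6 lists of GABA signalling, for CaMKIIβ RIP and IgG RIP; filled points had an adjusted p under 0.05 and blue bars are list medians. The 7 described subunits lie mostly left of 0, with medians of -0.73 and -0.59, and the clustering and trafficking genes mostly right, with medians of 0.43 and 0.41.

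Cell type markers moved in both directions beside these changes. Over the whole transcriptome the shares past the threshold against Input were 5.06% up and 3.4% down for CaMKIIβ RIP. For IgG RIP they were 20.1% up and 18.7% down. Whether any marker list departed from these shares was not tested, and the inhibitory neuron counts in IgG RIP lay close to them. Of 13 markers of cerebellar granule cells, the cells known for alpha6, CaMKIIβ RIP had 3 higher and 1 lower and IgG RIP 7 higher and 2 lower, while Gabra6 itself fell in both. The protocadherin-like Fat2 rose (1.47 ± 0.12 and 1.55 ± 0.06, log2 fold change ± SE), and Cbln3 was at -0.25 ± 0.10 and -0.14 ± 0.06 (neither past the threshold). Cbln1 was at 0.27 ± 0.13 in CaMKIIβ RIP (not past it) and rose in IgG RIP (0.39 ± 0.06). Zic1 was at -0.01 ± 0.11 (not past it) and fell in IgG RIP (-0.16 ± 0.06). The transcription factor Etv1, picked after its values were seen, fell (-1.05 ± 0.19 and -0.82 ± 0.06). It was the 1 marker lower in CaMKIIβ RIP. The summed level of the 13 granule cell markers ran from 4580 to 4734 CPM in Input, 7295 to 7697 in IgG RIP and 7077 to 7838 in CaMKIIβ RIP. Fat2 alone carried this difference, since the other 12 markers summed to 3076 to 3128, 3023 to 3147 and 2968 to 3258 CPM. The 14 hippocampal and telencephalic markers gave 1 higher and 0 lower with CaMKIIβ and 7 and 2 with IgG, with sums of 525 to 533, 558 to 607 and 537 to 640 CPM. The 11 inhibitory neuron markers gave 1 and 2, and 2 and 2, with sums of 814.5 to 837, 753 to 774 and 741 to 800.5 CPM, and 2 of them were at 0 in a CaMKIIβ RIP library. For Purkinje cells 9 of 10 markers were in the table, with 1 higher and 3 lower with CaMKIIβ and 3 and 3 with IgG, and sums of 4990 to 4998, 8107 to 8598 and 7988 to 9248 CPM. Without Itpr1, an intracellular calcium channel, the sums of the other 8 were lower in the immunoprecipitates, at 2440 to 2502 in Input, 2064 to 2149 in IgG RIP and 2074 to 2189 in CaMKIIβ RIP. Of 6 thalamic markers tested 0 passed in CaMKIIβ RIP and 1 rose in IgG RIP. Astrocyte markers gave 7 higher and 0 lower of 11 with CaMKIIβ and 10 and 0 with IgG, and oligodendrocyte markers 5 and 1, and 7 and 3, of 12. The part of cell types in the subunit values was not tested.

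Profiles over the 8 libraries (log2 CPM, Pearson's r, given as a description since the libraries share the split between RIP and Input) placed Gabra6 and Gabrb2 closest of the members, at 0.962. Gabrb2 with Gabra4 stood at 0.895, Gabrb2 with Gabra2 at 0.873 and Gabra6 with Gabra2 at 0.853. Gabrd stood at -0.52 to 0.26 with the others and Gabra5 at -0.26 to 0.26. Among 10076 named genes with a mean log2 CPM of at least 3, the profiles most like Gabra6 were those of Phf14 (0.991), Tmed10 (0.989) and Ercc6l2 (0.989), and the most like Gabrb2 those of Kif5b (0.992), Commd6 (0.991) and Nae1 (0.991). Gabra2 lay nearest to Aasdhppt, Rgs17 and Arglu1 (0.995 each), and Gabra4 to Ncbp2 (0.99), Kcnt2 (0.985) and Gtpbp8 (0.983). Gabra3 lay nearest to Caprin2 (0.978), Sestd1 (0.965) and Gabpa (0.964). Gabrd lay nearest to Rab3a, a small GTPase of synaptic vesicles (0.997), Pgs1 (0.99) and Ivd (0.988), a profile marked by CaMKIIβ RIP replicate 2. Gabra5 had the loosest neighbours, Garre1 (0.931), Ctbp2 (0.922) and Flad1 (0.916).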

How the data were processed

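The authors deposited raw counts for each gene in 8 libraries. The submitters' processing notes name STAR 2.7.3a, featureCounts 2.0.1, cutadapt 2.10, Trim Galore 0.6.4 and GRCm38.p6, with no strand setting. Symbols came from RefSeq genes whose span matched (34128 of 55401 genes named), and 0 sample columns were left unmapped. Each comparison was fitted on its own libraries over all genes with edgeR 4.0.16 (R 4.3.3; TMM, filterByExpr with minimum count 10 and total 15, quasi-likelihood test, Benjamini-Hochberg adjusted p under 0.05). All 7 members passed the filter. CPM use TMM over all 8 libraries. Shares were compared by two-sided exact permutation tests (scipy 1.17.1). The length trend was added after the data were seen. Alternatives were other scalings and count filters, DESeq2 1.42.0, limma-voom (limma 3.58.1), a fit of all 8 libraries, a replicate block and each library left out. The code was tested on simulated data. Members and lists were chosen with earlier results of these data known. By rule the text names all members, up to 4 genes per list with the highest level per kb, and the 3 profiles most like each member. Etv1 and Spink8 were picked after their values were seen. Further subunit genes are given as counts.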

Additional observations from a re-analysis of the deposited data

How the results depend on the processing

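Between the antibodies 0 members were past the threshold under all 15 alternatives. Against Input 0 members were higher under any of the 14 alternatives of either comparison. In CaMKIIβ RIP against Input 4 members were lower as reported, 3 or 4 under the 9 alternatives that keep all libraries, and 0 to 4 with 1 library left out (0 without CaMKIIβ RIP replicate 1 and 1 without Input replicate 2). All 4 kept their direction in all 14. The log2 fold change of Gabra2 stood at -1.09 with RLE scaling (adjusted p = 0.0526) and at -1.11 with a stricter count filter of 10 per library (adjusted p = 0.0507), each short of the threshold; over all alternatives its adjusted p ran from 2.45e-13 to 0.238. Gabra4 was also lost without CaMKIIβ RIP replicate 3 (-0.64) and without either Input library (-0.77 and -0.74); with 1 Input library left, only RIP libraries gave a spread. The cause of the other changes was not tested. In IgG RIP against Input 4 members were lower as reported, 4 to 6 otherwise and 4 to 5 with 1 library left out, and Gabra2, Gabra4, Gabra6 and Gabrb2 passed in all 14. With the replicate block the members called against Input were 4 in CaMKIIβ RIP and 4 in IgG RIP, and the libraries share only a number (same-numbered libraries correlated at -0.098 to 0.122 in their deviations). Over all genes it called 4205 instead of 1868 in the CaMKIIβ comparison (1986 higher and 2219 lower), where CaMKIIβ RIP replicate 3 has no Input of its number. Over all genes that comparison called 2866 without a count filter, 3448 with DESeq2, 3833 in the fit of all 8 libraries, and 4089, 845 and 400 without CaMKIIβ RIP replicate 2 and Input replicates 1 and 2. IgG RIP against Input called 8653 as reported, 3676 in the fit of all 8 libraries and 5659 without Input replicate 2. Intervals cover the spread between few libraries, 2 of them Input.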
